A study of Mus musculus with 5 samples.

Results

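The genes described here are 32 presynaptic genes of 32285 features in count matrices from the hippocampus of newborn (P1) mouse pups. They were taken by name, as genes of synaptic vesicles and transmitter release, and no measured value chose them; each was found in the matrices in 1 row. They fall into 9 role groups: synapsins (Syn1, Syn2), vesicle membrane proteins (Syp, Syngr1, Syngr3, Sv2a, Sv2b, Sv2c), synaptotagmins (Syt1, Syt4, Syt11), SNARE proteins (Snap25, Stx1a, Vamp1, Vamp2), the SNARE recycling machinery (Nsf, Napa, Napb), complexins (Cplx1, Cplx2), active zone proteins (Rab3a, Rims1, Rims2, Bsn, Pclo, Unc13a, Unc13b, Ppfia2), neurexins (Nrxn2, Nrxn3) and vesicular glutamate transporters (Slc17a6, Slc17a7).

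Transmitter is stored in vesicles that dock at the active zone, a protein scaffold on the presynaptic membrane. SNARE proteins of the vesicle and of the cell membrane pull both together, complexins and synaptotagmins tie fusion to the entry of calcium, and the ATPase NSF with its adaptors takes spent SNARE complexes apart. The newborn hippocampus still makes granule neurons from radial glia through Eomes-positive progenitors, while pyramidal neurons of fields CA3 and CA1 have been born and are forming synapses.

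Single-cell RNA-seq was made from papain-dissociated hippocampi of Trem2 +/+ pups (wild type, libraries 1, 2 and 3) and Trem2 -/- pups (knockout, libraries 2 and 3); Trem2 encodes a receptor of microglia. Each library pooled 2 pups, so the spread between libraries is one between pools, and nothing says whether pools came from separate litters. One label gives 2 males for the libraries numbered 2 and 1 female with 1 male for the others, while another gives both sexes for every library. The strain and the allele are not given in the sources used here.

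The libraries held 40345 barcodes and 60024793 to 91205882 UMIs (counted transcript molecules) each, and 29201 cells were kept. Pairs of libraries shared 12 to 26 barcodes, of which 6 to 17 were kept cells in both. Trem2 in microglia-gated cells in wild-type against knockout libraries was at 976, 1060 and 656 against 45.3 and 64.0 CPM (UMIs scaled to the class's total), without overlap. Cells were classed by marker genes, none of them among the 32, and 18415 cells (63.1%) fell in a progenitor or neuron class. Excitatory neurons were split by the maturity share, the share of maturing-neuron markers in the UMIs of maturing and immature markers: immature under 0.15, maturing from 0.4, and intermediate between. These are ranges of a score and not types, and 2644 of 11271 excitatory cells (23.5%) lay within 0.05 of the early limit. Maturing cells held 1054 CA3-gated and 1009 CA1-gated neurons, and 854 (27.6%) had no field; in wild-type library 2 only 76 cells were CA1-gated. CA1 markers summed to 730 to 956 CPM in CA1-gated and 16.4 to 19 CPM in CA3-gated neurons, while CA3 markers summed to 672 to 782 CPM in CA3-gated and still 399 to 524 CPM in CA1-gated neurons. The gates were set on these same markers, so the sums are no separate check of the fields. Granule-gated neurons were mostly young, with 60.8% immature.

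Levels are CPM of the UMIs summed over a class in a library, as mean ± SD over the 5 libraries unless each library is given in the order wild type 1, 2, 3, knockout 2, 3. Reads come from transcript ends, so a level is compared for 1 gene between classes and not between genes. A gene was called at an adjusted p under 0.05 in edgeR's quasi-likelihood test with Benjamini-Hochberg adjustment over all genes tested.

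**Figure D1:**
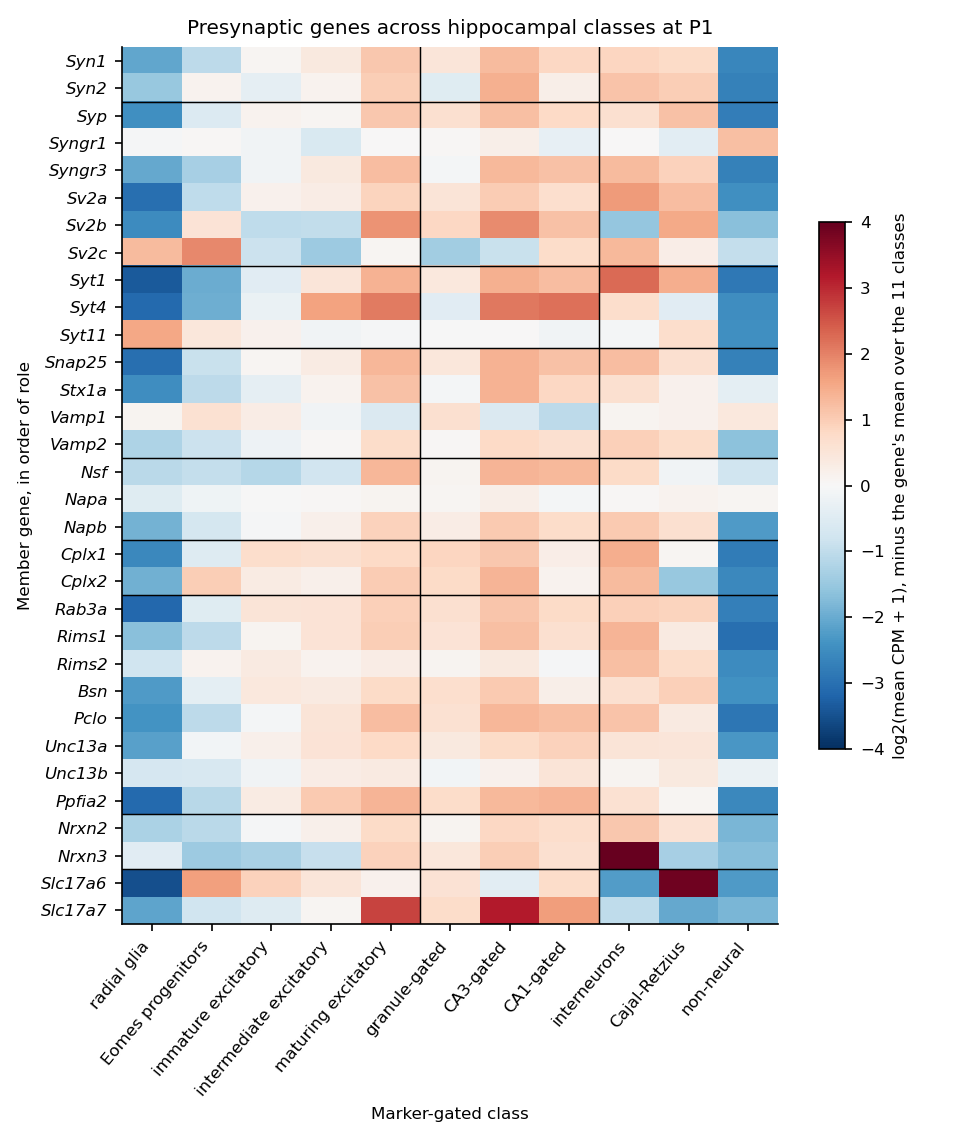
Level of each of the 32 genes (rows, by role) in 11 marker-gated classes (columns), as log2(mean CPM + 1) minus the gene's mean over the classes, with colours limited at 4 on either side. Most genes are low in radial glia and high in maturing neurons, while Syt11 is highest in radial glia, Sv2c in Eomes progenitors and Syngr1 in non-neural cells.

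Most of the genes were already higher in Eomes progenitors than in radial glia. There 28 of the 32 were called higher and 2 lower, with a median log2 fold change of 1.37, against 31.3% higher and 26.9% lower of all genes and a median of 0.05. The 8 immature neuron markers summed to 1190 to 1470 CPM in radial glia, 10300 to 11000 CPM in Eomes progenitors (a median of 6 of the 8 per cell) and 11600 to 12400 CPM in immature neurons, and 23.5% to 28.2% of the cells classed as Eomes progenitors passed the gate for dividing cells; their part in the result was not tested. From Eomes progenitors to immature neurons 21 were called higher and 6 lower (median 0.74), against 32.3% and 30.1% of all genes (median 0.03). From immature to maturing neurons 27 were called higher and 3 lower (median 0.93), against 36.5% and 37.1% (median -0.02). Cells were also deeper at the last step, from medians of 6615 to 7788 UMIs to medians of 17880 to 22950 UMIs by library. With every cell of at least 3000 UMIs thinned to 3000, 23 were called higher and 2 lower at that step. The share of all genes called in thinned cells is not given here, so these counts have no background beside them.

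In 13 genes the level was higher at each stage from Eomes progenitor through immature and intermediate to maturing neuron in all 5 libraries: Syn1, Syngr3, Syt1, Syt4, Snap25, Stx1a, Vamp2, Napb, Rims1, Pclo, Unc13a, Ppfia2 and Nrxn2. None was lower at each stage in all 5 libraries, and Vamp1 and Slc17a6 were so in 4. The share of all genes higher or lower at each stage was not counted, so these counts have no background beside them. Of 68 other presynaptic genes tested, 42 were called higher and 6 lower at the first step, 51 and 5 at the next, and 50 and 10 at the last. Rimbp2, which links active zone scaffolds, rose from 0.716 ± 0.277 to 16.7 ± 1.26 CPM at the last step and Syt13 from 0.871 ± 0.589 to 18.8 ± 1.54 CPM, while Syt2, a fast calcium sensor, fell from 22.9 ± 8.08 to 0.589 ± 0.306 CPM.

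**Figure D2:**
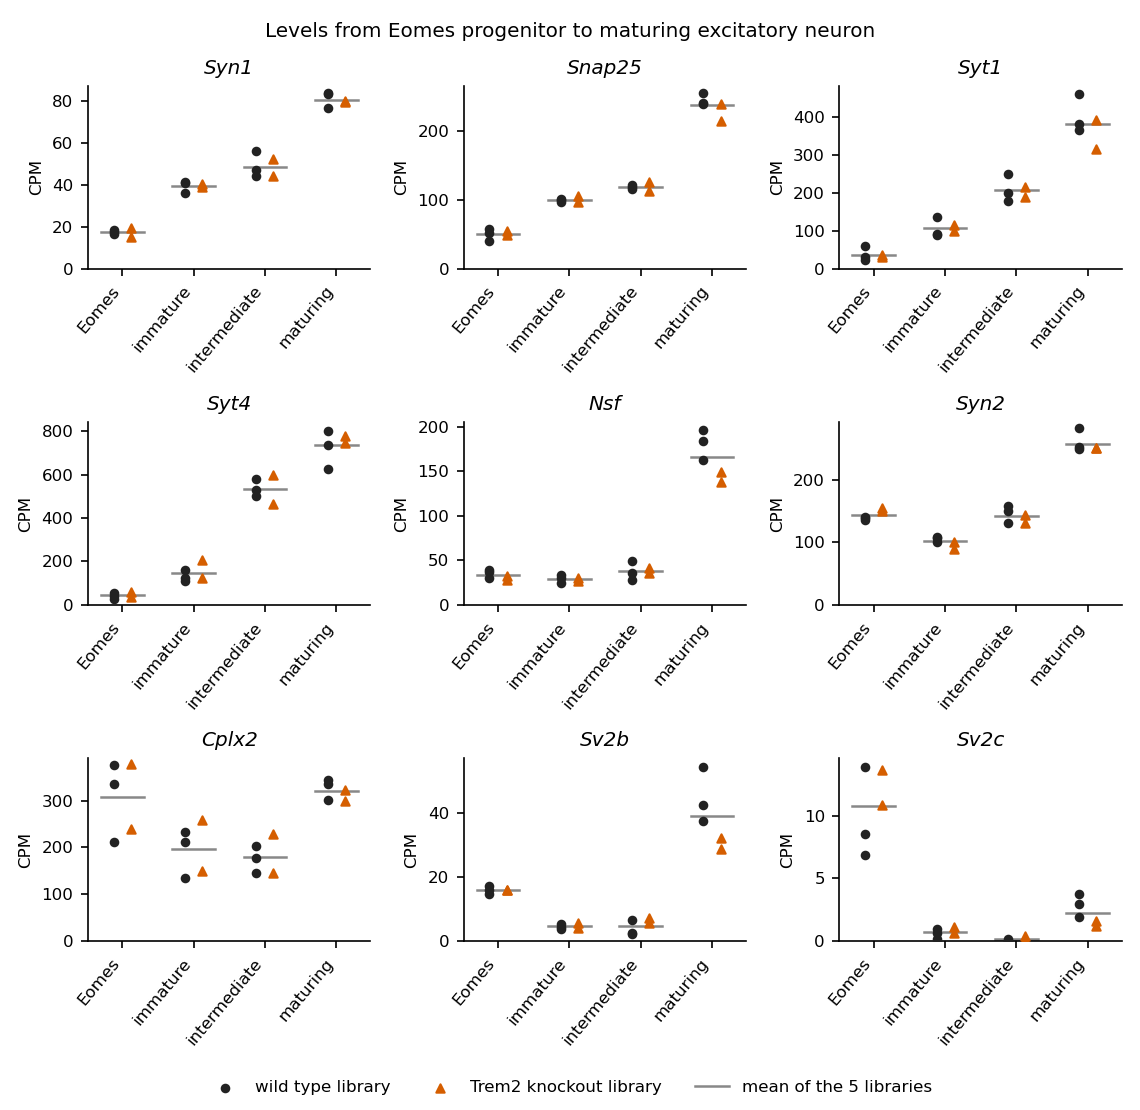
Level (CPM, axis from 0) of 9 genes in 4 stages, 1 point per library (circles wild type, triangles knockout) with the mean of the 5 libraries as a line. Syn1, Snap25, Syt1 and Syt4 climb stage by stage, and Nsf is near level until it is higher in maturing neurons.

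The synapsins, phosphoproteins that cluster vesicles, took different courses. Syn1 stood at 8.02 ± 2.32 CPM in radial glia, 17.4 ± 1.75 CPM in Eomes progenitors, 39.6 ± 2.12 CPM in immature and 80.5 ± 2.98 CPM in maturing neurons, and was called higher at each of the 3 steps. Syn2 first fell from 144 ± 8.14 to 101 ± 7.61 CPM between Eomes progenitors and immature neurons and then rose from 101 ± 7.61 to 257 ± 14.2 CPM. By library Syn2 was at 249, 253, 282, 251 and 251 CPM in maturing neurons, above the 89.5 to 109 CPM of immature neurons in every library.

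Among the vesicle membrane proteins, Syp (synaptophysin) rose from 35.3 ± 2.26 to 58.1 ± 2.16 CPM and then from 58.1 ± 2.16 to 112 ± 10.6 CPM, and Sv2a, a vesicle glycoprotein of most neurons, from 33.0 ± 6.37 to 77.3 ± 12.8 CPM and then from 77.3 ± 12.8 to 128 ± 7.35 CPM. In maturing neurons Sv2a was at 127, 126, 126, 122 and 141 CPM, so that the libraries were close to each other. Its relatives dipped in the youngest neurons: Sv2b fell from 15.9 ± 0.934 to 4.67 ± 0.765 CPM and then rose from 4.67 ± 0.765 to 38.9 ± 10.0 CPM. Sv2c fell from 10.8 ± 3.09 to 0.711 ± 0.364 CPM (log2 fold change -3.86 ± 0.31 SE, adjusted p = 2.62e-14, edgeR) and was highest in Eomes progenitors of all classes. Syngr3 rose at each step, to 103 ± 7.73 CPM in maturing neurons. Syngr1, a synaptogyrin, was at 35.0 ± 3.14 CPM in maturing neurons and at 368, 421, 214, 669.6 and 323 CPM in microglia-gated cells, where its genotypes overlapped.

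Of the synaptotagmins, Syt1 is the calcium sensor of fast release, Syt4 sits on dense-core vesicles, and Syt11 does not bind calcium. Syt4 rose from 44.2 ± 12.7 to 145 ± 38.9 CPM and then to 737 ± 68.2 CPM (log2 fold change 2.36 ± 0.11 SE, adjusted p = 4.00e-22, edgeR). By library it stood at 529.9, 579.8, 504, 599 and 466 CPM in intermediate and 803, 626, 735, 744 and 779 CPM in maturing neurons. Every library was thus higher in the later class, and the libraries of both classes did not overlap. Syt1 rose from 36.3 ± 14.1 to 107 ± 19.6 CPM and then to 383 ± 52.4 CPM. Syt11 ran the other way, at 748 ± 27.1 CPM in radial glia, its highest class without overlap, and it fell at each step to 243 ± 18.3 CPM in maturing neurons.

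The SNARE proteins Snap25 and Stx1a of the cell membrane and Vamp2 of the vesicle rose at each step. Snap25 was at 52.1, 40.6, 57.5, 49.6 and 54.6 CPM in Eomes progenitors, 101, 99.5, 97.1, 96.8 and 106 CPM in immature neurons and 255, 239, 241, 239 and 215 CPM in maturing neurons, with no overlap between these classes. Stx1a was at 24.8 ± 1.88 CPM in immature and 72.7 ± 1.64 CPM in maturing neurons, and Vamp2 at 119 ± 5.33 and 227 ± 14.2 CPM. Vamp1, the vesicle SNARE prevalent in brainstem and spinal cord, fell from 4.09 ± 0.439 to 1.77 ± 0.299 CPM at the last step.

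Nsf, the ATPase of SNARE recycling, was not called at either of the first steps and then rose from 29.0 ± 3.26 to 166 ± 24.3 CPM (log2 fold change 2.51 ± 0.08 SE, adjusted p = 9.99e-29, edgeR). By library it was at 33.2, 24.6, 30.2, 27.2 and 29.8 CPM in immature, 36.3, 27.5, 48.8, 35.6 and 40.9 CPM in intermediate and 184, 162, 197, 138 and 149 CPM in maturing neurons. Its immature and intermediate libraries overlapped, and all maturing libraries lay above both. Its adaptors were both called higher at each step and differed in the size of the change. Napb, the adaptor of neurons, rose to 99.6 ± 9.03 CPM (log2 fold change 0.97 ± 0.06 SE at the last step). Napa, found in most tissues, rose less (0.13 ± 0.06 SE at the last step). It was at 80.6 ± 6.16 CPM in maturing neurons and 78.9 ± 7.38 CPM in non-neural cells.

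The complexins bind assembled SNARE complexes and hold them ready for calcium. Cplx2 stood at 40.3 ± 11.4 CPM in radial glia and 308 ± 77.6 CPM in Eomes progenitors, fell to 197 ± 53.8 CPM in immature neurons and rose again to 320.2 ± 19.8 CPM. By library it was at 335, 212, 376, 240.0 and 378 CPM in Eomes progenitors and 302, 336, 343, 299 and 322 CPM in maturing neurons, which overlapped. Cplx1 rose from 19.95 ± 4.92 to 48.1 ± 7.82 CPM and was not called at the last step (50.8 ± 2.98 CPM).

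All 8 active zone genes were called higher from Eomes progenitors to immature neurons, and all but Rims2 at the last step. Rab3a, the GTPase of docked vesicles, rose from 34.6 ± 5.51 to 219 ± 23.1 CPM at the first step, was at 444 ± 23.7 CPM in immature neurons and at 567, 616, 649, 624 and 576 CPM by library in maturing neurons. Ppfia2 (liprin-alpha2) was at 28.1 ± 4.97, 76.3 ± 11 and 157 ± 14.5 CPM in these 3 classes and Pclo (piccolo, a scaffold) at 48.8 ± 9.64, 97.5 ± 13.9 and 245 ± 23.7 CPM. The priming factor Unc13a was at 5.17 ± 1.63 CPM in radial glia and 48.1 ± 3.1 CPM in maturing neurons, and Bsn (bassoon) at 4.10 ± 0.669 and 40.6 ± 4.63 CPM.

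Neurexins are presynaptic adhesion molecules. Nrxn2 rose at each step and was at 296, 284, 238, 262 and 281 CPM by library in maturing neurons against 153 ± 8.91 CPM in immature neurons. Nrxn3 fell from 23.3 ± 6.98 to 11.2 ± 4.80 CPM from radial glia to Eomes progenitors, was not called at the next step, and rose from 12.7 ± 4.63 to 62.4 ± 3.51 CPM at the last.

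The vesicular glutamate transporters, which load glutamate into vesicles, ran in opposite directions from immature to maturing neurons. Slc17a6 (VGLUT2) rose from 1.01 ± 1.02 to 70.9 ± 5.91 CPM from radial glia to Eomes progenitors (log2 fold change 6.13 ± 0.30 SE, adjusted p = 2.54e-21, edgeR) and then fell from 70.9 ± 5.91 to 43.0 ± 6.90 CPM and from 43.0 ± 6.90 to 24.7 ± 7.81 CPM. By library it stood at 68.0, 66.8, 66.0, 73.9 and 79.9 CPM in Eomes progenitors and 30.0, 13.4, 33.7, 21.8 and 24.7 CPM in maturing neurons, without overlap. Slc17a7 (VGLUT1) also rose from radial glia to Eomes progenitors, from 3.6 to 10.4 CPM (log2 fold change 1.68 ± 0.31 SE). It was not called from Eomes progenitors to immature neurons and then rose from 12.9 ± 1.84 to 130.0 ± 25.1 CPM (log2 fold change 3.33 ± 0.11 SE, adjusted p = 5.08e-27, edgeR). By library it was at 12, 15.4, 10.6, 14.0 and 12.6 CPM in immature and 118, 175, 117, 124 and 116 CPM in maturing neurons. Wild-type library 2 had the lowest Slc17a6 and the highest Slc17a7 of maturing neurons, and also the highest median maturity share, 0.685 against 0.602 to 0.638; its part in these values was not tested.

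Cell by cell, thinned to 3000 UMIs, 17.3% ± 1.90 of Eomes progenitors held Slc17a6 alone, 2.20% ± 0.852 Slc17a7 alone and 0.631% ± 0.166 both. In maturing neurons 5.94% ± 1.37 held Slc17a6 alone, 22.3% ± 3.49 Slc17a7 alone and 1.39% ± 0.922 both. Non-neural cells, which should lack both, gave 0.427% ± 0.438 and 0.870% ± 0.917 for either alone. Unthinned, 29.9% of maturing neurons held Slc17a6 and 62.5% Slc17a7, against 3.01% and 3.62% of non-neural cells. Slc17a6 was highest in Cajal-Retzius neurons, early-born neurons of the marginal zone, at 355, 303, 372, 338 and 338 CPM, while Slc17a7 there (3.86 ± 2.01 CPM) lay near the 2.32 to 10.6 CPM of non-neural cells. The 8 Cajal-Retzius markers summed to 15.8 to 28 CPM in Eomes progenitors and to 6890 to 8630 CPM in Cajal-Retzius neurons. Both gates used these same 8 markers, so a gap between the sums was set in advance.

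**Figure D3:**
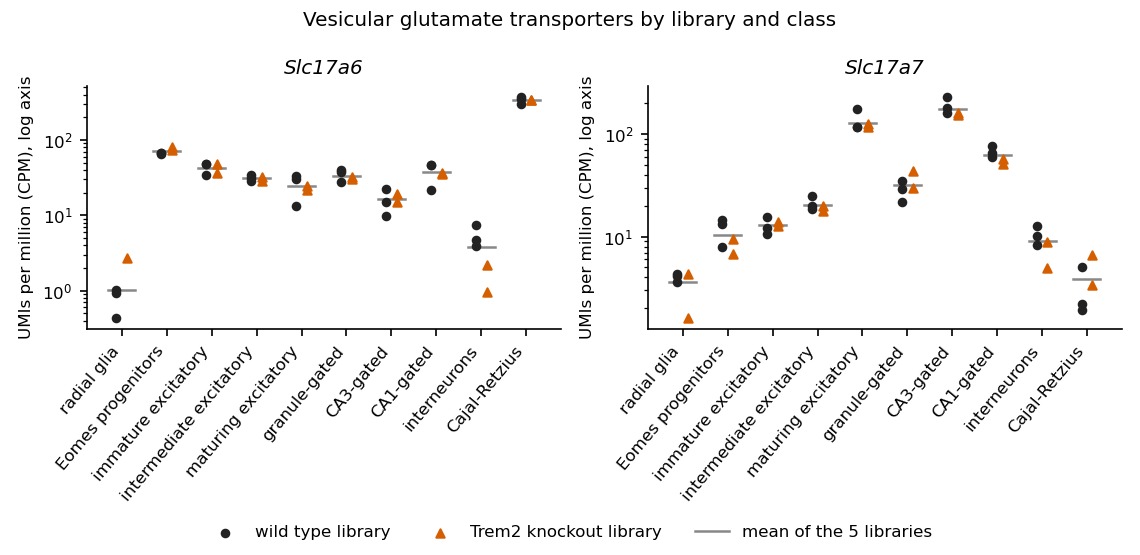
Slc17a6 and Slc17a7 in 10 classes, in CPM on a log axis, 1 point per library (circles wild type, triangles knockout) with the mean of the 5 libraries as a line. Slc17a6 declines from Eomes progenitors to maturing neurons and peaks in Cajal-Retzius neurons, and Slc17a7 is highest in CA3-gated neurons.

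RefSeq promoter windows on GRCm38.p6 (300 bases, 250 before and 50 after a transcription start) were matched for 26 of the 32 genes, 35 windows in all. Both transporters are shown because their levels ran in opposite directions from immature to maturing neurons. Syn1 and Unc13a are shown because they hold, as Slc17a6 does, letters of RE1, the element bound by the repressor REST. Sequences run 5′ to 3′ on the gene's strand, from chr7:51621580-51621879 (Slc17a6, plus), chr7:45163671-45163970 (Slc17a7, plus), chrX:20920869-20921168 (Syn1, minus) and chr8:71671708-71672007 (Unc13a, minus). Capitals mark the RE1 consensus with open letters, named RE1 core here, in Slc17a6 (opposite strand, bases 285 to 299) and Syn1 (bases 21 to 35), TGACGTCA, the cAMP response element, in Syn1 (bases 92 to 99), overlapping copies of the GC box GGGGCGGGG in Slc17a7 (opposite strand, bases 231 to 244), and the RE1 consensus with its parts set farther apart in Unc13a (opposite strand, bases 259 to 279).
Slc17a6: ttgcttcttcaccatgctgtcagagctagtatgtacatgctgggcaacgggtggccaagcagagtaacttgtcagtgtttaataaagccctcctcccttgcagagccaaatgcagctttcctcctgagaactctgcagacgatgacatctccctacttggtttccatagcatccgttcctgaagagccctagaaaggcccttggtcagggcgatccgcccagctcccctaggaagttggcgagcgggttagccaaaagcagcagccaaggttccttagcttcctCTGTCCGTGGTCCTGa
Slc17a7: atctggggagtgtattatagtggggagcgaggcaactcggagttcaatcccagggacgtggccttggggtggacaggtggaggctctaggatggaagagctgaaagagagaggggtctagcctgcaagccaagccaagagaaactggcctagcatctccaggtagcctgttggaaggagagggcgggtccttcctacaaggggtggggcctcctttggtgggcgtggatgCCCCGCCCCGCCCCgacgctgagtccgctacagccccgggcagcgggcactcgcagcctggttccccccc
Syn1: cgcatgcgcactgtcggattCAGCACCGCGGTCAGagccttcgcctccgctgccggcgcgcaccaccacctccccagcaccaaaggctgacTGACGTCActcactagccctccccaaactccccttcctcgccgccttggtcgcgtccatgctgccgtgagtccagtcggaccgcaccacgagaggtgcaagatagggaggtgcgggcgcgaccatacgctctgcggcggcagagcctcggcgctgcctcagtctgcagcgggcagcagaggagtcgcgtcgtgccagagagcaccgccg
Unc13a: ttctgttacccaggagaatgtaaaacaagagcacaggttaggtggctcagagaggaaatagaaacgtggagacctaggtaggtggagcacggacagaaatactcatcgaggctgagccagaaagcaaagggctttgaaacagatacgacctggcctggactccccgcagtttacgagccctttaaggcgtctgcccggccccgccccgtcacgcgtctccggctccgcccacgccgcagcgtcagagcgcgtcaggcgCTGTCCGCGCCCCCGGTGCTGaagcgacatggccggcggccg

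Searched on both strands, the RE1 core was in 2 of the 35 windows and in 0.0974% of all 32851 RefSeq windows, and the wider spaced form in 1 and in 0.0183%. TGACGTCA was in 2 (Syn1 and Napa) and in 1.79% of all, and GGGGCGGGG in 10 and in 11.4%. The Unc13a window above also holds GGGGCGGGG (opposite strand, bases 199 to 207), which is not in capitals there. Among the printed windows this motif was marked in Slc17a7 only. The motifs were chosen with the windows known, so a match describes these letters only.

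CA3-gated neurons held more of most of these transcripts than CA1-gated neurons. Of the 32, 23 were called lower and 3 higher in CA1-gated neurons, with a median log2 fold change of -0.37, against 20.3% lower and 18.2% higher of all genes and a median of 0.01. Slc17a7 differed most among those lower, at 182, 231, 162, 159.6 and 155 CPM in CA3-gated and 65.5, 77.1, 59.9, 57.4 and 50.8 CPM in CA1-gated neurons, without overlap (log2 fold change -1.57 ± 0.12 SE, adjusted p = 7.09e-15, edgeR). Cplx2 was at 406 ± 22.9 and 171 ± 25.4 CPM, Syn2 at 349 ± 37.3 and 154 ± 14.9 CPM, and Cplx1 at 62.9 ± 2.92 and 35.3 ± 4.73 CPM. Higher in CA1-gated neurons were Slc17a6 (16.3 ± 4.85 and 37.2 ± 10.0 CPM), Sv2c (0.676 ± 0.604 and 4.22 ± 1.47 CPM) and Unc13b, a priming factor (23.6 ± 2.18 and 30.2 ± 2.06 CPM). Nsf, Syt4, Vamp1, Pclo, Unc13a and Ppfia2 were not called.

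CA3-gated cells were also deeper, with medians of 23440 to 30080 UMIs by library against 16480 to 20080. With every cell of at least 3000 UMIs thinned to 3000, edgeR called 11 of 30 genes tested lower and 0 higher. Thinning removed most UMIs of these cells, and the part of this loss in the smaller count was not tested. Of the 68 other presynaptic genes tested, 35 were called lower and 12 higher in CA1-gated neurons. Synpr, the vesicle protein synaptoporin, went from 34.3 ± 6.34 to 2.21 ± 1.01 CPM and Unc13c from 7.35 ± 2.19 to 18.1 ± 4.22 CPM.

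Interneurons, which release GABA, differed from maturing excitatory neurons in both directions: 10 of the 32 were called higher and 13 lower (median log2 fold change -0.07), against 25.1% and 26.7% of all genes (median 0.00). Nrxn3 was at 631, 644, 494, 539 and 583 CPM in interneurons and 62.6, 66.4, 57.4, 64.8 and 60.8 CPM in maturing excitatory neurons, without overlap (log2 fold change 3.17 ± 0.12 SE, adjusted p = 3.26e-25, edgeR). Also higher were Syt1 (707 ± 93.9 against 383 ± 52.4 CPM), Sv2a (222 ± 27.7 against 128 ± 7.35 CPM), Cplx1 (81.7 ± 12 against 50.8 ± 2.98 CPM) and Rims2, which scaffolds release sites (80.9 ± 15.2 against 42.9 ± 2.66 CPM). Lower were Slc17a7 (8.98 ± 2.82 CPM), Sv2b (2.98 ± 0.780 against 38.9 ± 10.0 CPM), Slc17a6 (3.83 ± 2.49 CPM, within the 0.581 to 9.13 CPM of non-neural cells) and Syt4 (286 ± 29.0 CPM). Of the other presynaptic genes, Slc32a1, the vesicular GABA transporter, went from 0.826 ± 0.385 to 196 ± 16.5 CPM.

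Among classes that share no cells, 15 of the 32 were highest in CA3-gated neurons, 8 in interneurons and 4 in CA1-gated neurons. The highest class did not overlap with the next for Syn1, Stx1a and Slc17a7 (CA3-gated), Sv2a, Syt1, Cplx1 and Nrxn3 (interneurons), Slc17a6 (Cajal-Retzius) and Syt11 (radial glia), and overlapped for the others. The highest class was not counted over all genes, so whether this order is particular to the 32 was not tested. Cajal-Retzius neurons had 53.8 ± 11.5 CPM of Cplx2 and 127 ± 19.1 CPM of Syt4, beside 575 ± 29.2 CPM of Rab3a. Granule-gated neurons had 126 ± 38.9 CPM of Syt4 and 481 ± 32.3 CPM of Rab3a.

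Between genotypes none of the 32 was called in any of the 8 classes, by edgeR as fitted here, with no replicate block, or by DESeq2. With the replicate number as a block edgeR called 1 of them, Nrxn3 in granule-gated neurons. At an unadjusted p under 0.05, edgeR gave 2 of 31 in CA1-gated neurons (3.1% of all genes), 3 of 31 in CA3-gated (3.41%), 3 of 32 in maturing excitatory (3.06%) and 2 of 31 in granule-gated neurons (4.75%). It gave 1 of 31 in immature neurons (1.99%), 0 of 32 in Eomes progenitors (2.17%), 1 of 31 in interneurons (4.95%) and 1 of 32 in Cajal-Retzius neurons (2.95%). After adjustment edgeR called 0% of all genes in 6 classes, 0.00878% in interneurons (Ccnd2) and 0.00887% in Cajal-Retzius neurons (C1ql1).

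In CA1-gated neurons 23 of 31 genes had a lower fitted level in the knockout, against 5906 of 11529 over all genes. Their median log2 fold change was -0.15 against -0.01 over all genes. For 7 genes the knockout libraries were both under all wild-type ones, and for 0 both were over them, against 10.3% and 7.08% of all genes. In CA3-gated neurons 23 of 31 were lower, against 6278 of 12214 over all genes (median -0.06 against -0.01), with 7 below and 1 above (10.4% and 7.75% of all genes). In maturing excitatory neurons, which hold both fields, 22 of 32 were lower, against 7049 of 13593 over all genes (median -0.06 against -0.01), with 5 below and 0 above (10.4% and 7.23%). Of the other presynaptic genes tested, 42 of 62 were lower in CA1-gated, 42 of 64 in CA3-gated and 38 of 69 in maturing neurons. Single libraries moved the medians over the 32 genes: the CA1 median was -0.02 without knockout library 2 and -0.04 without wild-type library 1. The CA3 median was -0.02 without wild-type library 1, and the maturing median -0.01 without wild-type library 2.

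In granule-gated neurons 22 of 31 were higher, against 5683 of 11635 over all genes and 46 of 63 other presynaptic genes. The median over the 31 was 0.08 against -0.01 over all genes, with 3 above and 1 below (8.44% and 11.3% of all genes). That median was 0.22 without wild-type library 3 and -0.05 over cells with at most 5% mitochondrial UMIs. Over all granule-gated cells the 10 radial glia markers summed to 241 to 274 CPM in wild-type and 158 to 168 CPM in knockout libraries, and the 5 markers of oligodendrocyte precursors to 5.94 to 17.1 CPM and 1.95 to 2.24 CPM, both without overlap; their part in the result was not tested. In Eomes progenitors 5 genes lay above and 1 below (8.05% and 7.19%), in immature neurons 1 and 0 (6.94% and 8.07%), in interneurons 1 and 4 (8.61% and 11.4%), and in Cajal-Retzius neurons 0 and 1 (7.88% and 10.5%). Their medians were 0.01, 0.02, -0.04 and -0.01, and leaving out 1 library took each of them across 0: from -0.04 to 0.10 in Eomes progenitors, -0.04 to 0.07 in immature neurons, -0.09 to 0.004 in interneurons and -0.08 to 0.02 in Cajal-Retzius neurons.

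The maturity share was lower in each knockout library than in any wild-type library in maturing and CA3-gated neurons. Its median per cell was 0.647 ± 0.0347 in wild-type and 0.604 ± 0.0036 in knockout libraries in maturing neurons, and 0.673 ± 0.0494 and 0.612 ± 0.0127 in CA3-gated neurons, without overlap (exact two-sided permutation p = 0.2 for each, over 10 assignments of the libraries). In CA1-gated (0.635 ± 0.0191 and 0.609 ± 0.0099) and granule-gated neurons (0.112 ± 0.0188 and 0.143 ± 0.0446) the groups overlapped. With cells of a share between 0.4 and 0.65 only, an alternative chosen after seeing the data, the median over the genes was -0.01 in CA1-gated, -0.04 in CA3-gated and 0.005 in maturing neurons. That limit kept 1701 of 3090 maturing, 543 of 1054 CA3-gated and 573 of 1009 CA1-gated cells, with as few as 37 CA1-gated cells in a library. Median shares in maturing neurons stayed apart, at 0.53, 0.522 and 0.503 in wild-type against 0.5 and 0.5 in knockout libraries. In CA1-gated and CA3-gated neurons they overlapped. For granule-gated neurons the limit was a share under 0.15, which kept 1215 of 2000 cells. Over all alternatives, this one included, the granule-gated median over the genes ran from -0.046 to 0.218.

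**Figure D4:**
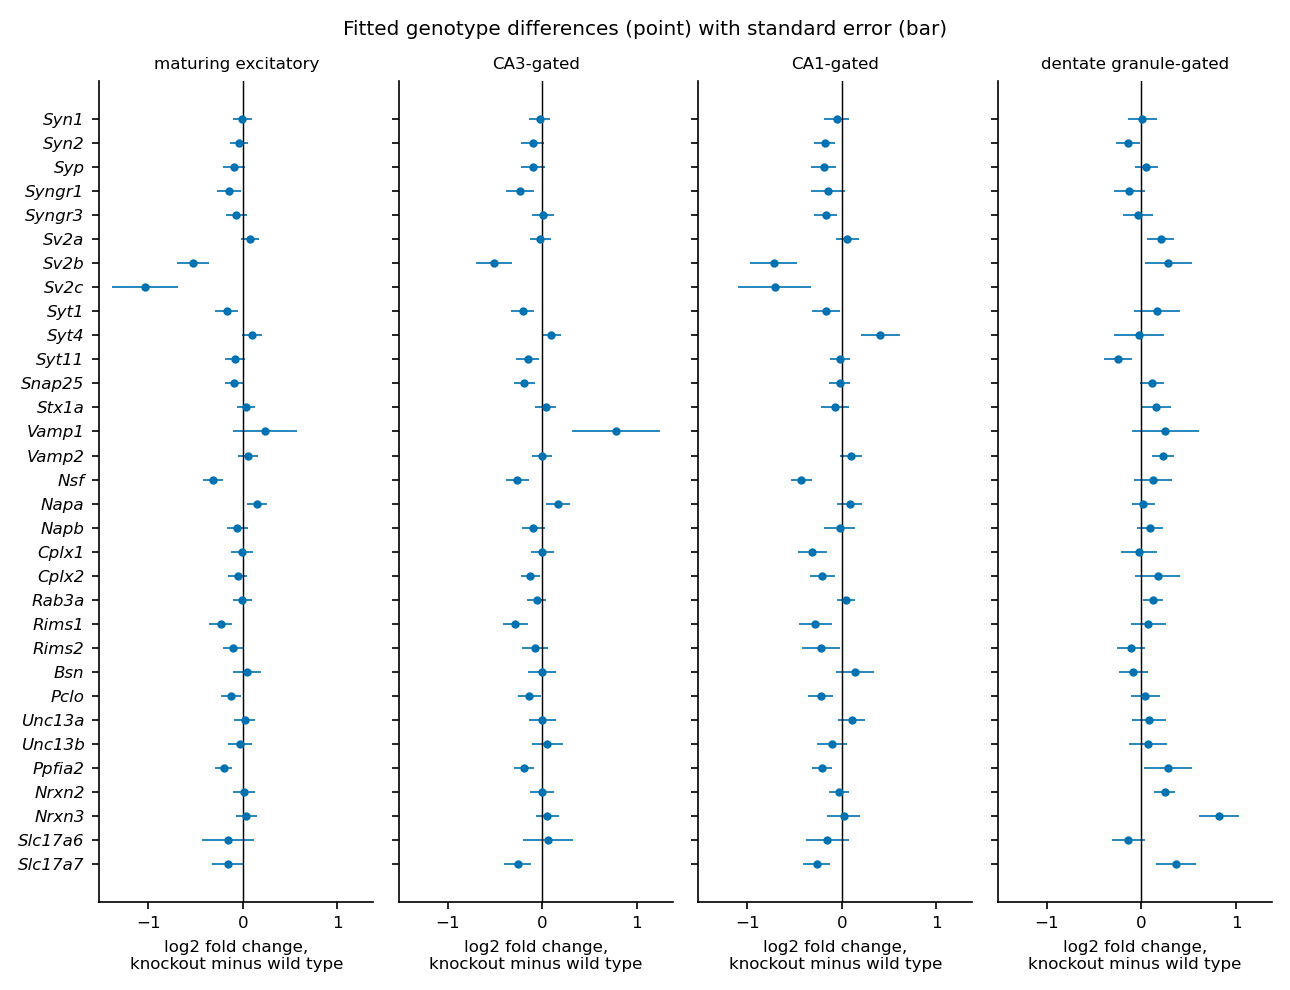
Fitted log2 fold change, knockout minus wild type, of the 32 genes (points) with the standard error (bars) in 4 classes; a gene too low to test has no point. Points lie mostly below 0 in CA1-gated and mostly above 0 in granule-gated neurons, and none passed the adjusted threshold in these fits without the replicate block.

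In 4 classes Nsf was lower in each knockout library than in any of the wild type. In CA1-gated neurons it was at 178, 168 and 196 CPM against 124 and 141 CPM (log2 fold change -0.43 ± 0.11 SE, adjusted p = 0.999, edgeR). In maturing neurons it was at 184, 162 and 197 CPM against 138 and 149 CPM (log2 fold change -0.32 ± 0.10 SE, adjusted p = 1.00, edgeR). In CA3-gated neurons the groups only just parted, at 197, 157.2 and 196 CPM against 144 and 157.0 CPM, and likewise in interneurons, at 112.4, 121 and 118 CPM against 91.6 and 112.3 CPM. With the share of 0.4 to 0.65 its fitted difference was -0.59 in CA1-gated, -0.35 in maturing and -0.14 in CA3-gated neurons.

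Ppfia2 was below in 3 classes: at 168, 160.2 and 176 CPM against 148 and 138 CPM in CA1-gated, 158, 152 and 168 CPM against 136 and 139 CPM in CA3-gated and 164, 159 and 176 CPM against 141 and 144 CPM in maturing neurons. Its fitted log2 fold changes were -0.22 ± 0.11, -0.19 ± 0.11 and -0.20 ± 0.09 (SE), none of them called by edgeR. Sv2b was at 42.2, 54.3 and 37.5 CPM against 32.1 and 28.5 CPM in maturing neurons (log2 fold change -0.53 ± 0.17 SE, adjusted p = 1.00, edgeR) and at 41.9, 61.7 and 39.7 CPM against 36.1 and 29.6 CPM in CA3-gated neurons. In interneurons it was also below but too low to test, and in CA1-gated neurons its groups overlapped (38.4, 18.0 and 32.8 CPM against 16.6 and 20.6 CPM). With the share of 0.4 to 0.65 its difference in maturing neurons was -0.12.

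Other genes with the smallest p in their class were not called either. In CA1-gated neurons Cplx1 was at 37.9, 39.9 and 37.9 CPM against 32.2 and 28.6 CPM, and its fitted difference of -0.31 ± 0.16 (SE) turned to 0.09 in thinned cells. In CA3-gated neurons Slc17a7 was at 182, 231 and 162 CPM against 159.6 and 155 CPM, apart, and Rims1, which tethers calcium channels, at 94.9, 73.8 and 92.4 CPM against 66.7 and 74.5 CPM, overlapping. Sv2c in maturing neurons was at 3.74, 1.90 and 2.98 CPM against 1.17 and 1.60 CPM, from as few as 13 UMIs in a library.

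In granule-gated neurons Nrxn3 was at 25.7, 31.5 and 45.1 CPM against 51.2 and 70.1 CPM, with both knockout libraries above (log2 fold change 0.82 ± 0.21 SE, adjusted p = 0.969, edgeR). With the replicate block edgeR called it (log2 fold change 0.69, adjusted p = 0.000219), as it did without a filter on low counts (adjusted p = 0.00106), and over all alternatives its adjusted p ran from 0.000219 to 1.00. The 13 markers of interneurons, the class highest in Nrxn3, summed to 47.8 to 67.3 CPM in wild-type and 66.2 to 79.8 CPM in knockout granule-gated cells; their part in the result was not tested. Nrxn2 was at 167, 158 and 158 CPM against 176 and 201 CPM and Vamp2 at 130.0, 118 and 146 CPM against 149 and 156 CPM, both apart, and Slc17a7 at 21.7, 29.5 and 34.8 CPM against 29.8 and 43.9 CPM, overlapping. Nrxn3 had the smallest p in immature neurons (7.57, 10.5 and 13 CPM against 12.5 and 20.1 CPM) and in Eomes progenitors (4.40, 8.84 and 14.2 CPM against 16.8 and 11.7 CPM) too, with overlap in both.

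In interneurons Slc17a6 was at 4.70, 3.88 and 7.45 CPM against 0.954 and 2.19 CPM (adjusted p = 0.826, edgeR), from as few as 3 UMIs in a library and within the level of non-neural cells. Syt4 there was at 298, 247 and 265 CPM against 319 and 299.9 CPM and Cplx2 at 413, 353 and 419 CPM against 339 and 349 CPM, both apart, and Sv2a at 226, 203 and 204 CPM against 209 and 269 CPM, overlapping. In Eomes progenitors Slc17a6 was at 68.0, 66.8 and 66.0 CPM against 73.9 and 79.9 CPM and Unc13b at 15.4, 13.3 and 13.6 CPM against 12.4 and 9.57 CPM, both apart, while Slc17a7 overlapped at 14.5, 7.86 and 13.4 CPM against 9.55 and 6.70 CPM. In immature neurons Stx1a was at 24.1, 24.7 and 22.3 CPM against 25.1 and 27.5 CPM, apart, and Syt4 (109.5, 163 and 125 CPM against 205 and 124 CPM) and Syn2 (107, 109 and 100.1 CPM against 101 and 89.5 CPM) overlapped. In Cajal-Retzius neurons Syngr1 was at 30.4, 24.4 and 30.4 CPM against 21.8 and 19.7 CPM, apart (adjusted p = 1.00, edgeR), and Slc17a7 (5.11, 2.22 and 1.94 CPM against 6.68 and 3.35 CPM), Rims2 (69.2, 53.8 and 61.4 CPM against 44.7 and 60.2 CPM) and Syt1 (437, 324 and 509 CPM against 328 and 407 CPM) overlapped.

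Whether the genotype difference itself differed between CA1-gated and CA3-gated neurons was tested as an interaction. edgeR and DESeq2 called 0 of 31 genes (0% of 12122 genes by edgeR), and 0 had an unadjusted p under 0.05 in edgeR. The smallest belonged to Cplx1, whose fitted log2 fold change was -0.31 in CA1-gated and -0.003 in CA3-gated neurons.

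Within libraries of the same sex make-up by the first label, the knockout has 1 library each and no test was made. Between the libraries of 2 males the median log2 difference over the genes was -0.11 in CA1-gated, -0.04 in CA3-gated and 0.14 in granule-gated neurons, and between those of 1 male and 1 female it was -0.08, -0.10 and 0.11. In Eomes progenitors (0.15 and -0.01) and Cajal-Retzius neurons (0.12 and -0.06) the signs differed.

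Of the 70 other presynaptic genes none was called between genotypes by edgeR without the block or by DESeq2. Those with the smallest p in maturing neurons were Synpr at 15, 22.5 and 24.8 CPM against 30.1 and 33.7 CPM, Rab27b, a GTPase of vesicle docking, at 20.7, 17.4 and 19.3 CPM against 14.8 and 14.2 CPM, and Dnm1, the dynamin of vesicle retrieval, at 57.8, 58.7 and 52.9 CPM against 45.0 and 46.6 CPM, each without overlap. In CA1-gated neurons they were Rab27b, Apba1 and Snap29, in CA3-gated neurons Dnm1, Synpr and Snap29, and in granule-gated neurons Unc13c, Doc2a and Snap29. In immature neurons they were Rims4, Cacna1a and Dnajc5, in Eomes progenitors Cacna1a, Rph3a and Syt16, in interneurons Rims3, Syt16 and Unc13c, and in Cajal-Retzius neurons Rimbp2, Slc17a8 and Sncb.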

How the data were processed

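The deposited values are UMI counts per gene and cell barcode, made by the authors with Cell Ranger 6.1 on mm10, per the submitters' processing notes, and with 6.1.1 per the file headers; no source used here names the annotation release. Barcodes with at least 500 genes and 1000 UMIs and at most 15% mitochondrial UMIs were kept, and 1498 Scrublet doublets were removed; Scrublet's automatic threshold marked under 0.5% in 3 libraries, where the highest scores up to the expected number were removed instead. Cells were gated by markers (scanpy 1.11.5), each class's counts were added up within a library, and the library was the replicate. The sums were tested with edgeR 4.0.16 (TMM factors, filterByExpr, quasi-likelihood F test, Benjamini-Hochberg adjustment over all genes tested, limit 0.05) in R 4.3.3. Genotype fits took 1 class each, and fits between classes had the library as a block. The SE of a fold change is its size over the root of F. Alternatives were DESeq2 1.42.0, its size factors, no filter, a replicate block, the number of males, a stricter gate, Leiden clusters, a 5% mitochondrial limit, cells thinned to 3000 UMIs, doublets kept and each library left out. The scripts were tested on simulated data.

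All 32 genes are accounted for. Values per library are given for the highest gene of each role in maturing neurons, the 4 with the smallest p in each genotype comparison and those without overlap in 3 or more classes; of 70 other presynaptic genes, the 3 with the smallest p are named in each class, with values in maturing neurons. The genes, lists and tests were chosen with earlier results of these data known. UMIs of 3 of the genes (Syn2, Sv2c, Syt1) may be shared with an overlapping gene on the same strand.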

Additional observations from a re-analysis of the deposited data

How the results depend on the processing

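Over 59 results and 887 recomputed values, 860 were taken as kept, and 24 of the 887 were added after seeing the data. Fold changes and medians were kept if they held direction and side of the threshold, or stayed within the spread. Counts of genes called were kept if equal to the main count or within a fixed ratio of it. Genes called lower from maturing neurons to interneurons, 13 in the main fit, ran from 11 to 18 and were taken as kept. Where the construction does not show it, the cause of a change was not tested. The median genotype difference over the 32 genes (log2) moved in CA1-gated neurons to -0.028 with the replicate block and -0.012 with the maturity share limited, and ran from -0.148 to -0.019 with 1 library left out. In CA3-gated neurons it was -0.025 with the block and ran from -0.088 to -0.022 with 1 library left out. In granule-gated neurons it was -0.046 at the 5% mitochondrial limit and ran from 0.019 to 0.218 with 1 library left out. In maturing neurons it was 0.005 with the maturity share limited and ran from -0.068 to -0.014 with 1 library left out.

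Counts moved beyond that ratio in these cases. In granule-gated neurons 1 gene (Nrxn3) was called without a filter and 1 with the replicate block. In the test between CA1-gated and CA3-gated neurons 1 was called without a filter. From radial glia to Eomes progenitors 18 were called higher and 4 lower with Leiden clusters, and from CA3-gated to CA1-gated neurons 0 higher and 11 lower in thinned cells, where shallower cells are left out. The shares of all genes called in these fits are not given here. Fitted differences that changed sign, none of them called, were Cplx1 in CA1-gated (0.089) and Cplx2 in interneurons (0.036) in thinned cells, Nrxn2 (-5.51e-05) and Slc17a7 (-0.169) in granule-gated neurons with the stricter gate, Vamp2 (-0.110) and Slc17a7 (-0.011) there at the 5% mitochondrial limit, Syt4 in immature neurons (-0.101 without knockout library 2 to 0.656 without knockout library 3), and Slc17a6 in interneurons with Leiden clusters (0.101).

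The replicate numbers are only shared numbers, with 2 pairs. The deviations of the libraries numbered 2 correlated at 0.346 to 0.622 across genes. With only 2 knockout libraries the deviations of knockout library 3 are the negatives of those of knockout library 2, so its correlations (0.226 to 0.481 with wild-type library 3, 0.0973 to 0.372 with wild-type library 1) are no separate evidence, and the number and the labelled sex make-up cannot be told apart. The block raised the count of all genes called from 0 to 184 in granule-gated neurons and from 1 to 76 in interneurons, with 1 of the 32 called, Nrxn3. Wild-type library 2 held 76 CA1-gated cells. At the 5% mitochondrial limit that library held fewer than 20 CA1-gated cells, so it was left out of the CA1 genotype fit and the step from CA3-gated to CA1-gated neurons could not be fitted.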
